A study of Mus musculus with 2 samples.

Results

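Mir744, Mir652, Mir151, Mir342, Mir340 and Mir361 are microRNA (miRNA) genes whose hairpins lie inside protein-coding genes. These 6 genes, of 2202 miRNA genes in the tables, were chosen by name from earlier results on the same counts, partly for their high read counts. Their levels are therefore described without a test. The counts came from small-RNA libraries of the left cerebral cortex of adult female 5xFAD/CAST mice, 8 to 10 months old, made from total RNA in a size range under 30 nt. There were 2 libraries, biological replicates 1 and 2, in 1 group. 5xFAD is a transgenic mouse line whose transgenes are driven in neurons by the Thy1 promoter and whose brains form amyloid plaques. Both libraries share this background, and no library of mice lacking the transgenes was analysed here. The donor entry in the labels is identical for both libraries and the tissue pieces differ. Whether the pieces came from separate animals is not stated. An SD with n = 2 is therefore the spread of 2 libraries, and differences between them are differences between these libraries and may be technical.

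A miRNA hairpin in an intron is usually transcribed as part of its host's primary transcript. Drosha cuts the hairpin out, Dicer removes the loop, and 1 of the arms, named 5p and 3p, is loaded into Argonaute. The loaded strand finds messenger RNAs mainly through its seed, bases 2 to 8, and lowers their stability and translation. The hosts here act in unlike processes. Map2k4 is a kinase that activates JNK, Ptk2 is focal adhesion kinase, Evl extends actin filaments as an Ena/VASP protein, Rnf130 is a RING-type ubiquitin ligase, Chm escorts Rab proteins to their lipid-attaching enzyme, and Tmem164 is a transmembrane protein. Host messenger RNA was not measured in these libraries, so breadth of host expression is background and was not checked here.

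RefSeq (GRCm38.p6) held hairpin and mature sequences for 5 of the 6 members, which gave 10 mature arms; Mir151 was not in that table. The arms are shown 5′ to 3′ with the seed in capitals, since the seed decides whether members could address the same targets.
miR-744-5p: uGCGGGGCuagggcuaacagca
miR-744-3p: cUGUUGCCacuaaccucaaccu
miR-652-5p: cAACCCUAggagggggugccauuc
miR-652-3p: aAUGGCGCcacuaggguugug
miR-361-5p: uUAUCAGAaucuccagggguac
miR-361-3p: uCCCCCAGgugugauucugauuugu
miR-342-5p: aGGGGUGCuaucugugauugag
miR-342-3p: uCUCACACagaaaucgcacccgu
miR-340-5p: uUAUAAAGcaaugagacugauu
miR-340-3p: uCCGUCUCaguuacuuuauagc

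No seed occurred in more than 1 of these arms: there were 10 distinct seeds among 10 arms. None was shared with another of the 1679 distinct mature miRNAs in the table, of which 72.1% had a seed of their own. By this measure these 5 members form no seed family. Of the 10 arms, 6 start with U, against 41.3% of all mature entries. The arms differ in base composition. miR-744-5p is 63.6% G and C and miR-652-5p is 62.5%, while miR-340-5p is 27.3%, and 0.4% of distinct mature miRNAs have a lower share than miR-340-5p. The median of all distinct mature miRNAs is 52.2%.

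The hairpins of the most and the least abundant member are shown with both arms in capitals, Mir744 at chr11:65734733-65734832 on the minus strand and Mir340 at chr11:50069702-50069799 on the plus strand.
Mir744: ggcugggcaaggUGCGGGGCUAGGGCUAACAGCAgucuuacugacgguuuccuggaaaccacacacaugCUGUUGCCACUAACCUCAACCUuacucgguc
Mir340: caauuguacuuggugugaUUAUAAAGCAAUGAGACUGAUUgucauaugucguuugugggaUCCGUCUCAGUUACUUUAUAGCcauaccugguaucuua

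In Mir744 the arms are separated by 35 bases, the longest loop region of the 5 hairpins, and in Mir340 by 20. Predicted pairs between the arms numbered 16 in Mir744, 16 in Mir340, 16 in Mir361, 17 in Mir342 and 18 in Mir652. Folding energy per base, more negative for a firmer fold, ran from -0.500 kcal/mol in Mir652 to -0.346 in Mir340, around a median of -0.406 over 1005 RefSeq hairpins. Of those hairpins, 83.7% fold less firmly per base than Mir652, 67.6% less firmly than Mir744 and 27.0% less firmly than Mir340. Per base, Mir340 had the weakest predicted fold of these 5, while over the whole hairpin that of Mir361, the shortest, was weaker, at -28.6 against -33.9 kcal/mol.

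Each member lies in an intron of its host, on the host's strand, and overlaps no annotated exon of it (GENCODE M21, mm10). Mir744 (ENSMUSG00000076460.1) lies in intron 3 of 10 of the principal Map2k4 transcript, 359 bases after the upstream exon in an intron of 15588 bases. Mir652 (ENSMUSG00000076011.1; chromosome X, 142739000 to 142739097) lies in intron 2 of 6 of Tmem164, the longest of these introns at 69090 bases. The nearest exon of Tmem164 is 12942 bases away. Mir151 (ENSMUSG00000065612.1; chromosome 15, 73254815 to 73254882) lies in intron 22 of 31 of Ptk2. Mir342 (ENSMUSG00000065436.1; chromosome 12, 108658620 to 108658718) lies in intron 3 of 13 of Evl. Mir340 (ENSMUSG00000065417.1) lies in intron 2 of 8 of Rnf130, 1371 bases before the next exon. Mir361 (ENSMUSG00000065510.1; chromosome X, 113074824 to 113074893) lies in intron 9 of 14 of Chm. All 6 introns separate coding exons, and no host holds another miRNA gene of the tables. No member lies near the start of its host transcript: the distances run from 44354 bases for Mir340 to 168309 bases for Mir151. Only Mir151 overlaps a further annotated gene, 1700085D07Rik.

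**Figure D1:**
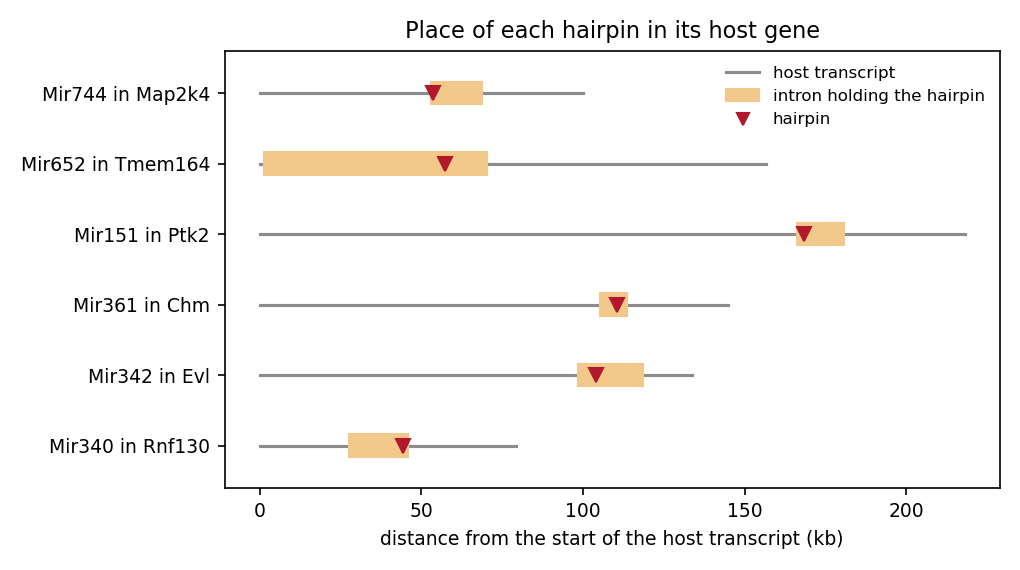
Place of each hairpin (triangle) along its host transcript (line), in kb from the transcript's start, with the intron that holds it as a box, all to scale. Mir744 sits at the upstream edge of its intron, 359 bases from the exon, and Mir652 lies in an intron of 69090 bases.

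The libraries held 12978140 and 15950006 reads, of which 4226300 and 5162369 matched a miRNA gene on its own strand. Levels are counts scaled to a common total of these reads (CPM), and 1 count equals 0.237 and 0.194 CPM. CPM are not divided by length, since reads of this size come from mature arms, and the arms of a hairpin are summed. Reads that mapped to several places, 40.4% and 39.4% of all reads, are outside the counts. Levels, ranks and shares of miRNA counts leave these reads out. MiRNAs encoded at several loci may therefore be under-counted beside the members, by an amount that was not tested. The 10 arms with a sequence share no stretch of 18 bases with another miRNA gene of the annotation, while outside miRNA genes miR-652-5p shares such a stretch with a transcript of Fitm2. Matches elsewhere in the genome were not analysed here. The members had 0 counts on the opposite strand in both libraries, which allows up to 3 counts each, and the unstranded counts equalled the stranded ones. The 4 listed neuronal marker hairpins (Mir137, Mir138-1, Mir132 and Mir383) were above 10 CPM in both libraries. Neural hairpins with copies at several loci were not listed, and some were lower. Mir124a-1 had 1.66 CPM in replicate 1 and 3.68 in replicate 2, and Mir124a-3 had 2.37 and 0.58.

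Together the members took 8.26% of the miRNA counts in replicate 1 (Wilson 95% interval 8.23 to 8.29) and 9.31% in replicate 2 (9.28 to 9.33). The mean was 8.78% ± 0.739 (SD, n = 2). Intervals cover counting error only, and an SD of 2 values is imprecise. Of the counts on the 969 hairpins inside protein-coding genes, these 6 held 15.5% and 18.3%. Mir744 alone supplied 56.9% of the members' counts in replicate 1 and 52.0% in replicate 2. Without Mir744 the members' mean share of miRNA counts was 4.01%.

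Mir744, whose product is reported to act on Tgfb1, was counted 198569 times in the first replicate and 249733 times in the second. These are 46984 and 48376 CPM, a mean of 47680 ± 984 (SD, n = 2). By these counts, which leave out reads that mapped to several places, it ranked 5 among all miRNA genes. Among hairpins inside protein-coding genes it ranked 3, behind Mirlet7g in Wdr82 (118079 ± 24708 CPM) and Mir139 in Pde2a and Gm45837 (117333 ± 37043 CPM). Its neighbours in level were Mirlet7i at 55297 ± 12630 and Mirlet7d at 46634 ± 10409 CPM. Both overlapped Mir744 in range, so its place among them is not fixed.

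Mir652, whose product is reported to act on the Notch ligand Jag1, had 59537 and 101674 counts, or 14087 CPM in replicate 1 and 19695 in replicate 2. Mir151, linked to cell migration together with its host Ptk2, had 54468 and 80785 counts, or 12888 and 15649 CPM. Their means were 16891 ± 3965 and 14268 ± 1952 CPM (SD, n = 2 each), at ranks 11 and 12. Mir652 was above Mir151 in both libraries, by 1.09-fold and 1.26-fold, but their ranges overlapped. Divided by hairpin length the order turned, with 172 CPM per base for Mir652 and 210 for Mir151. Reads of this size come from mature arms, so this division does not bear on which level is higher. Mir23b (19398 ± 1713 CPM) lay just above Mir652 and Mir328 (13850 ± 1424 CPM) just below Mir151, each within range of its neighbour.

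Mir361, reported to act on Vegfa, had 17700 and 33541 counts, or 4188 and 6497 CPM, a mean of 5343 ± 1633 at rank 40. Mir342, best known from immune cells and macrophages, had 18061 and 14089 counts, or 4273 and 2729 CPM, a mean of 3501 ± 1092 at rank 48 (SD, n = 2 each). These exchanged places between the libraries. Mir342 was slightly higher in replicate 1, where Mir361 was 0.980 of it, while in replicate 2 Mir361 was 2.38-fold above it. Mir674 and Mir98 stood beside Mir361 in the order, at 5448 ± 2348 and 4772 ± 1246 CPM. Mir378a and Mirlet7f-2 stood beside Mir342, at 3937 ± 176 and 3401 ± 105 CPM, and these 4 overlapped the member they flank.

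Mir340, studied as a restraint on the receptor Met in tumour cells, was far less abundant than the others. Its counts were 750 in the first replicate and 567 in the second, or 177 and 109.8 CPM, a mean of 144 ± 47.8 (SD, n = 2) at rank 183. Among hairpins inside protein-coding genes it ranked 82. The step from Mir342 down to Mir340 was 24.1-fold in replicate 1 and 24.8-fold in replicate 2, the widest between consecutive members. Mir744 exceeded Mir340 by 265-fold and 440-fold. By counted reads, 5 of 6 members were among the 50 highest miRNA genes. Mir340 was at rank 183, so the description of the set as abundant does not hold for Mir340. Mir380 (147 ± 105 CPM) and Mir30b (137 ± 29.8 CPM) flanked it, both overlapping it in range.

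**Figure D2:**
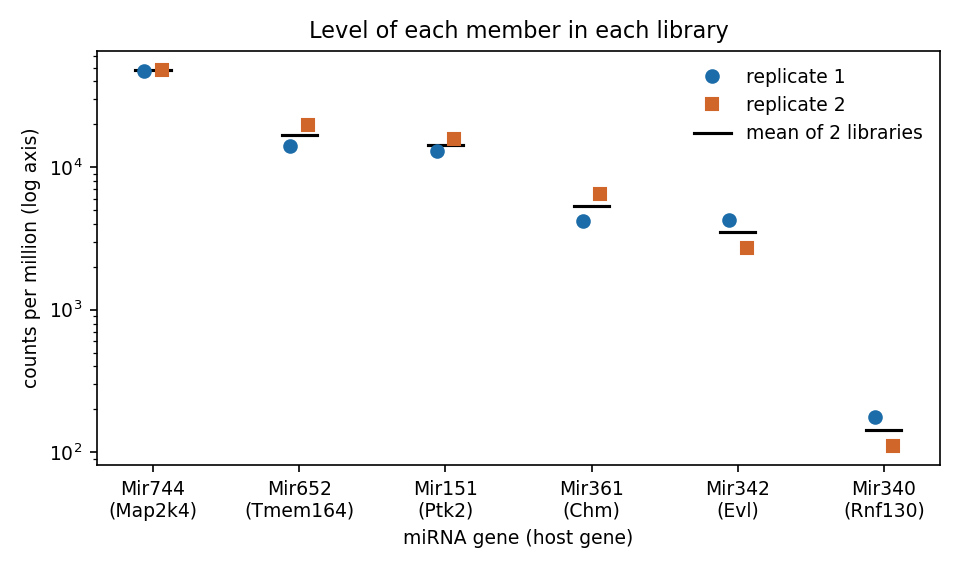
CPM (log axis) of each member in replicate 1 (circles) and replicate 2 (squares), with the mean of the libraries as a bar and the host gene in brackets. Mir744 has nearly equal values, 46984 and 48376 CPM, Mir361 and Mir342 change order, and Mir340 lies far below the rest at 177 and 109.8 CPM.

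Among the 969 hairpins inside protein-coding genes, 487 had no count in either library and 149 reached 10 CPM in both, all 6 members among them. Of the 733 hairpins that overlap no exon of the host, the members held 17.6% of the counts in replicate 1 and 20.3% in replicate 2. The most abundant hosted hairpins outside the set were Mirlet7g, Mir139, Mirlet7e in Spaca6 (29708 ± 224 CPM), Mir23b in 2010111I01Rik and Mir330 in Eml2 (11113 ± 112 CPM). Reads matching several loci are not counted, so levels of hairpins with copies at several loci, some let-7 hairpins among them, are uncertain.

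**Figure D3:**
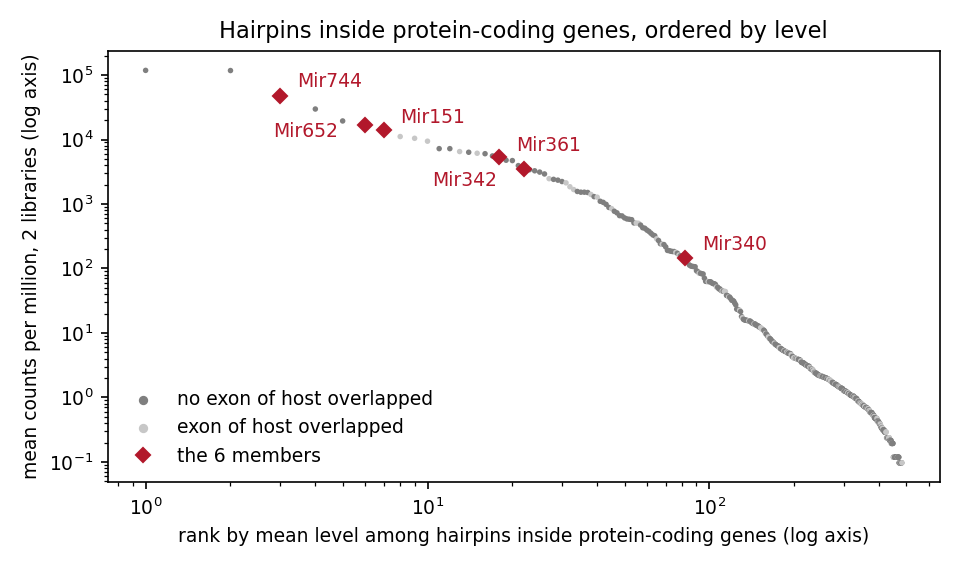
Mean CPM of the 482 hairpins inside protein-coding genes with any count, against their rank (both axes log). Dark points overlap no exon of the host, light points do, and diamonds are the members, which take ranks 3, 6, 7, 18, 22 and 82.

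Between the libraries the members moved in both directions. Replicate 2 was compared with replicate 1 by a two-sided exact binomial test per gene, which holds counting error alone, with Benjamini-Hochberg adjustment over 546 genes with at least 10 counts. The test called all 6 members: Mir744, Mir652, Mir151 and Mir361 (4 of 6) towards replicate 2, and Mir342 and Mir340 (2 of 6) towards replicate 1. This is to be read against the background, where 58.8% of tested genes were called, 24.5% towards replicate 2 and 34.2% towards replicate 1. Among the 204 genes that averaged at least 100 CPM, where all members lie, 87.7% were called, so a call at this depth says little.

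Ratios were scaled by TMM, which moved log2 ratios by -0.03 against scaling by totals. Mir361 was 1.52-fold higher in replicate 2 (log2 ratio 0.60, counting interval 0.58 to 0.63), and Mir652 was 1.37-fold higher there (0.45, interval 0.44 to 0.47). Mir151 was 1.19-fold higher in replicate 2 (0.25, interval 0.23 to 0.27). Mir340 was 1.65-fold higher in replicate 1 (log2 ratio -0.72, interval -0.88 to -0.56), and Mir342 was 1.60-fold higher there (-0.68, interval -0.71 to -0.65). Mir744 was level, at 1.008-fold (log2 ratio 0.011, interval 0.002 to 0.019), although the exact binomial test called it (Benjamini-Hochberg adjusted p = 0.0213).

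For comparison, the median absolute log2 ratio of the 204 genes at 100 CPM or more was 0.37. Mir744 and Mir151 lay below this median and Mir652, Mir361, Mir342 and Mir340 above it. Of these genes, 0.5% had a smaller absolute ratio than Mir744, 35.8% than Mir151, 56.9% than Mir652, 72.1% than Mir361, 75.0% than Mir342 and 78.4% than Mir340. An edgeR exact test that assumes a biological coefficient of variation (BCV) of 0.1 called 3 members, Mir361, Mir342 and Mir340, and 28.8% of all tested genes. Its adjusted p-values were 0.0159, 0.00539 and 0.00557 for these, and 0.0808, 0.394 and 1 for Mir652, Mir151 and Mir744. That BCV was set, not estimated.

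**Figure D4:**
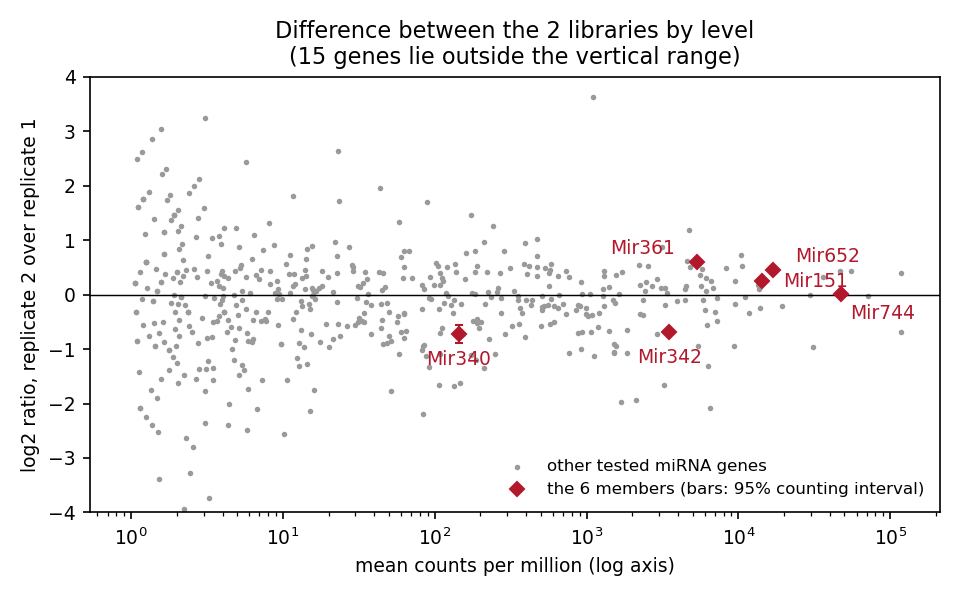
Log2 ratio of replicate 2 over replicate 1 against mean CPM (log axis) for the tested miRNA genes (grey) and the 6 members (diamonds, with 95% counting intervals); 15 genes lie beyond the vertical range. Mir361, Mir652 and Mir151 lie above 0, Mir342 and Mir340 below it and Mir744 at 0.011.

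Other hairpins were listed for comparison, from background knowledge, as lying in widely expressed hosts. How widely these hosts are expressed was not checked here. Some of the listed hairpins, Mir330 among them, overlap an exon of the host, unlike the members. Of 35 named, 34 were in the tables and 31 lay inside a protein-coding gene on their strand. They took 15.8% of the counts in replicate 1 and 19.4% in replicate 2, led by Mirlet7g, Mir330 and Mir191 (9455 ± 687 CPM), the last of which has no protein-coding host on its strand in this annotation. Without Mirlet7g the other 33 took 5.75% and 5.85%, so the difference in the summed share rested on Mirlet7g. Of the 34, 5 were not called, 13 were called towards replicate 2 and 16 towards replicate 1, against 24.5% and 34.2% of tested genes. The median log2 ratio of the 34 was -0.03. The median was 0.13 for the members and -0.07 for all tested genes. A listed relative of Mir151, Mir28a in Lpp, had 462 and 697 CPM and a log2 ratio of 0.56, while Mir28c had no count.

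A further 18 hairpins were listed from background knowledge as lying in genes with high neuronal expression, which was not checked here. Of these, 9 were called towards replicate 1 and 6 towards replicate 2, against 34.2% and 24.5% of all tested genes. The median log2 ratio of the 18 was -0.26. They held 17.3% of the counts in the first replicate and 11.0% in the second, and without Mir139 2.91% and 1.87%. Mir139, Mir149 and Mir128-1, the 3 most abundant, were called higher in the first. The members' share was instead the higher one in replicate 2. These lists overlap no member and were not tested against each other. Mir338 of the neuronal list is also an oligodendrocyte marker below.

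Levels of marker hairpins of several cell types stand beside these differences. Called markers are to be read against the 58.8% of all tested genes that were called, and 87.7% at 100 CPM or more. Mir223, Mir144, Mir486, Mir449a and Mir302a to Mir302d averaged less than 100 CPM. The microglia and immune list, Mir21a, Mir146, Mir155 and Mir223, summed to 4873 CPM in replicate 1 and 2157 in replicate 2, and to 1516 and 1258 CPM without Mir21a. Of its 4 genes 3 were called towards replicate 1, all but Mir155. Neuron markers, 3 of 4 called towards replicate 1 and 1 towards replicate 2, summed to 58124 and 38919 CPM, but to 17547 and 17730 CPM without Mir132, so that difference rested on Mir132. Both astrocyte markers, Mir23b and Mir29a (33637 and 28698 CPM summed), and both oligodendrocyte markers, Mir219a-2 and Mir338 (7091 and 5329 CPM), were called to the same side. Mir342 and Mir340 were also higher in replicate 1.

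In 3 other lists most markers were called towards replicate 2, where Mir652, Mir361 and Mir151 were also higher. The endothelium and mural list, Mir126a, Mir143 and Mir145a, summed to 13268 and 19327 CPM, and to 5511 and 6205 CPM without Mir126a, with 2 of 3 called towards replicate 2 and Mir145a towards replicate 1. Blood markers Mir451a, Mir144 and Mir486 summed to 72.4 and 887 CPM, and to 42.4 and 65.7 CPM without Mir451a, with Mir486 called towards replicate 1 and the other two towards replicate 2. Choroid plexus markers Mir204, Mir34c and Mir449a summed to 829 and 1346 CPM, with 2 of 3 called towards replicate 2 and Mir449a not called. The pluripotency markers Mir302a to Mir302d summed to 423 and 0.194 CPM, with Mir302a, Mir302c and Mir302d at 0 in replicate 2. The part of these markers in the members' differences was not tested. In bulk tissue, fewer cells of a type, less RNA per cell and a technical difference between the libraries cannot be told apart.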

How the data were processed

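The deposited tables hold raw read counts per miRNA gene, 1 table per library, quantified by the authors on mm10 with GENCODE M21, per the records beside the files. The aligner was not given in the sources used here, nor were the counter and the trimming. Only sense-strand counts entered the main values. Rows that name no gene held 67.4% and 67.6% of reads and stayed out. Read counts also depend on how well each sequence enters a library, so the order of levels is an order of reads.

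CPM, shares and Wilson intervals were computed with Python 3.11.15 and scipy 1.17.1. Ratios used TMM scaling (edgeR 4.0.16) and 0.5 counts added per library, and the exact binomial test a threshold of 0.05. DESeq2 1.42.0 size factors served as an alternative. Hairpins were folded with RNAfold 2.7.2. The test was checked on simulated counts that held counting error alone, with the library ratio given. That check does not cover other spread between libraries. Hosts are protein-coding genes spanning the hairpin on its strand. Intron numbers follow the longest APPRIS principal transcript.

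Members and lists were chosen with earlier results of these data known. Named genes were the members, the gene above and below each by mean CPM, genes sharing a seed or host with a member, the 5 most abundant other hosted hairpins and the 3 most abundant of each comparison list; marker genes were taken from fixed lists. Alternatives were the unstranded column, other scalings, count minimums, pseudocounts and denominators, and leaving out each library.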

Additional observations from a re-analysis of the deposited data

How the results depend on the processing

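No member's ratio changed direction under DESeq2 size factors, total counts, another or no pseudocount, or the unstranded column, and all 6 stayed called by the exact binomial test. Mir744 ranged from 0.01 to 0.08 on the log2 scale. With the edgeR exact test at a BCV of 0.1, 3 members and 157 genes were called in place of 6 and 321; that test allows for spread beyond counting error. The members' share was 2.85% of all reads of the tables, and 4.01% of miRNA counts without Mir744, a choice made after seeing the data, as was division by hairpin length. It was 8.26% to 9.31% when either library was left out, which by construction says nothing about stability. Of hairpins overlapping no exon of the host, the members held 18.96%. The summed neuron markers changed direction without Mir132, from -0.58 to 0.015 (log2 of summed CPM, replicate 2 over replicate 1); leaving out the leading gene of a list was chosen after seeing the data. No paired analysis was possible because the design holds 1 group. Depth limits Mir340 most: its counting interval is the widest of the 6.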

Other observations

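Mir652 and Mir361, the 2 members on chromosome X, both had higher values in replicate 2, a pattern noticed after the values were seen. Of the other 10 X-linked hairpins inside protein-coding genes that averaged at least 100 CPM, 4 were called towards replicate 2 and 5 towards replicate 1, and their median log2 ratio was -0.03. Mir98 in Huwe1 was 1.42-fold and Mir532 in Clcn5 1.35-fold higher in replicate 2. Mirlet7f-2, in the same host as Mir98, was at 1.02-fold and was not called. In Clcn5, Mir500 was also higher in replicate 2, by 1.19-fold, but Mir501 was 1.49-fold and Mir188 1.13-fold higher in replicate 1. The named hairpins of Clcn5 therefore did not share a direction, while both of Huwe1 leaned towards replicate 2, Mirlet7f-2 without a call. The like set of 73 autosomal hairpins, members left out, had 25 called towards replicate 2 and 38 towards replicate 1, and a median of -0.07. Over all 18 X-linked miRNA genes at that level other than the members, hosted or not, these numbers were 7 and 6, with a median of 0.03. X-linked and autosomal hairpins were not tested against each other.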
